A study of Rattus norvegicus with 2 samples.

Results

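Collagen genes were examined in a chromatin immunoprecipitation sequencing (ChIP-seq) library of rat myocardium under pressure overload. The members were the genes whose name in the authors' peak annotation begins with Col, a number, a and a number. There were 13 such genes of 8094 gene names, and they carried 100 of 28706 peaks. A current RefSeq gene table lists 44 collagen genes, so 31 had no peak under their own name. The rats were male Wistar rats with abdominal aortic constriction, a surgery in which the aorta above the renal arteries is tied against a wire so that the heart pumps against a narrowed vessel. The labels give 1 ChIP library and 1 input library of this model, both numbered 3, from myocardium. No genotype, age, number of animals, time after surgery or vagal stimulation is given in the labels of these samples. The antibody appears there as a vendor and catalogue number, and the series title names H3K18 lactylation (H3K18la, a lactyl group on lysine 18 of histone H3), which was taken here as the target.

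Collagens are proteins of the extracellular matrix built from 3 chains that wind into a triple helix. Fibrillar collagens assemble into the rope-like fibres that give tissue its tensile strength, with types I and III the main ones of the heart, made mostly by fibroblasts. Type IV collagens form the sheet-like network of basement membranes, which surrounds cardiomyocytes and underlies the endothelium. The other collagens link, anchor or decorate these structures. Lactylation of histones draws on lactate, and at this lysine it is usually described at active promoters and enhancers. The 6 type IV genes stand as 3 head-to-head pairs, each pair transcribed in opposite directions from neighbouring starts.

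The mark's collagen peaks were concentrated on type IV collagen. Col4a1 had 40 peaks and Col4a2 had 25, together 65 of the 100. Type IV genes had a peak at 4 of 6 members, fibrillar genes at 2 of 11 and the other collagens at 7 of 27. Col1a1, Col1a2 and Col3a1, which encode the chains of collagens I and III, were among the names with no peak. These counts are by name. Peaks of an unidentified placeholder model, of up to 6.65-fold, stood between genes that flank Col1a2 in RefSeq and are left out of them. A peak is a stretch called as enriched at a q-value of 0.05, and its fold enrichment is the authors' value over the caller's local background, used here only to describe and rank peaks within this list. With 1 library and no replicate, no test between groups was possible, and intervals below cover counting error only.

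The promoters of the 5 genes at which the results turn are shown because 4 of them had a peak at the start and that of Col4a2 shares its window with Col4a1. They are RefSeq sequences of 300 bases, 250 before and 50 after the start, read 5′ to 3′ on the gene's own strand. Capitals mark a GC box with the letters GGGCGG, or a CCAAT box, searched on both strands. The TATA box letters TATAAA were searched in the same way and were in none of the 5. The peaks are given in rn6, so the exact overlap of a peak with these bases was not analysed here.
Col4a1 (GRCr8 chr16:84885347-84885646, plus strand): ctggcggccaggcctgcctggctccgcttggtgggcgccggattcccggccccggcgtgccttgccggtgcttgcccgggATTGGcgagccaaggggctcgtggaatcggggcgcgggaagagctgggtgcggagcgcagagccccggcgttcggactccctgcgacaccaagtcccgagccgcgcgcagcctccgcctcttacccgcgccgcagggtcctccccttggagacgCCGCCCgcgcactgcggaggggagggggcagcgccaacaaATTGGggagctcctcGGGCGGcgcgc
Col4a2 (GRCr8 chr16:84885471-84885770, minus strand): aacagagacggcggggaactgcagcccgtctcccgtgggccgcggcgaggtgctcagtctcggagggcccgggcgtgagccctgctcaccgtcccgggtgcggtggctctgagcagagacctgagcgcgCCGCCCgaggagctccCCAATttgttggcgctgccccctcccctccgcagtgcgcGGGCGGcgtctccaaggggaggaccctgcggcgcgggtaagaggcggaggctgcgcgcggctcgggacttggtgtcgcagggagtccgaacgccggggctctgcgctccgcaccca
Col4a4 (GRCr8 chr9:91323528-91323827, minus strand): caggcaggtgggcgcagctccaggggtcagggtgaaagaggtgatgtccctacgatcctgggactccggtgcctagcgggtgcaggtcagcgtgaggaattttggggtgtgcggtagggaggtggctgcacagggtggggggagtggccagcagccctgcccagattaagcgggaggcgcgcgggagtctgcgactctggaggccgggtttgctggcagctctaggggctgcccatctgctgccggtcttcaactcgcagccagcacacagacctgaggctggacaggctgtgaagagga
Col4a3 (GRCr8 chr9:91323740-91324039, plus strand): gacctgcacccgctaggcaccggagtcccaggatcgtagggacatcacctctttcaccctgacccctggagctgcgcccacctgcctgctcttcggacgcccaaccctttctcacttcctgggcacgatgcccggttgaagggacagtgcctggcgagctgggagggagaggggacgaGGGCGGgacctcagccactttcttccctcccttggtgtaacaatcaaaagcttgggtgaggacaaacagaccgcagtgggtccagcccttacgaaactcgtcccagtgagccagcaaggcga
Col5a2 (GRCr8 chr9:55090102-55090401, minus strand): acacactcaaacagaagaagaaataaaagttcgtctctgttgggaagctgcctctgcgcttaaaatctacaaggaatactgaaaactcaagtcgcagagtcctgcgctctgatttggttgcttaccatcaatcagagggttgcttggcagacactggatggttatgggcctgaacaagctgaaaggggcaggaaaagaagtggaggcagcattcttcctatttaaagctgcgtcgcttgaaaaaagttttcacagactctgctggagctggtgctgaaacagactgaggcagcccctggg
The Col4a1 and Col4a2 windows overlapped by 176 bases that were identical on opposite strands, and their RefSeq starts lay 77 bases apart. The windows of Col4a3 and Col4a4 overlapped by 88 bases, with starts 413 bases apart. Those of Col4a5 and Col4a6 did not overlap, with starts 1415 bases apart. Col4a1 and Col4a2 had GC contents of 75% and 73.7% with 38 and 37 CpG sites, against a median of 51.7% and 7 sites over 33469 RefSeq promoter windows. Col4a4 had 65.3% with 14 sites and Col4a3 62.0% with 15. Col5a2 had the lowest of the 5, with 47.7% and 6 sites. Neither Col5a2 nor Col4a4 held any of the 3 boxes.

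The share of collagen genes with any peak was close to that of all genes. It was 13 of 44 (29.5%, 95% Clopper-Pearson interval 16.8 to 45.2%), against 27.1% of 23154 protein-coding genes of the table. All 13 collagen names matched the table, but only 77.5% of all names with a peak did. Coding genes under unmatched names count as without a peak, so the shares of all genes may be too low. A promoter-class peak stood at 4 collagen genes (9.09%, 2.53 to 21.7%), against 9.88% of all genes. A peak centre within 1 kb of a transcription start site (TSS) was also found at 4 collagen genes, Col4a1, Col4a3, Col4a4 and Col5a2, against 17.1% of all genes. These counts use the annotated starts. RefSeq places the Col4a2 start 77 bases from that of Col4a1, so Col4a2 is left out of them by its annotated start. By class, any peak stood at 66.7% of type IV genes (22.3 to 95.7%), at 18.2% of fibrillar genes (2.28 to 51.8%) and at 25.9% of the other collagens (11.1 to 46.3%). These intervals overlap. None of the 27 other collagens had a peak within 1 kb of its TSS (0%, interval up to 12.8%).

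**Figure D1:**
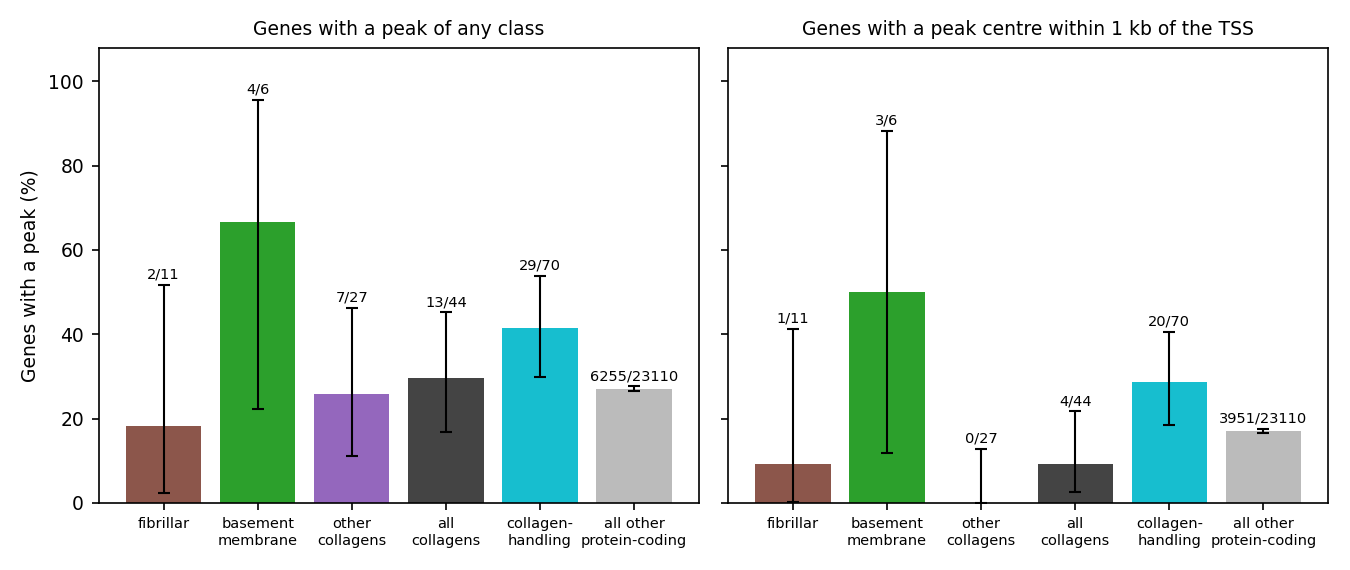
Share of genes (percent) with a peak of any class (left) and with a peak centre within 1 kb of a start (right), for collagen classes, all 44 collagens, 70 collagen-handling genes and all other protein-coding genes. Bars are shares, error bars 95% Clopper-Pearson intervals, and fractions are gene counts. The type IV bar is the highest in both panels, with an interval that reaches down to 22.3% on the left.

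The number of peaks per gene was uneven within the family. Col4a1 ranked sixth of 6247 named protein-coding genes with a peak, level with Rftn1 and Rgcc and below Tcf4, which had the most with 54. Col4a2 ranked 46. Genes with 25 or more peaks made up 0.22% of all genes and 2 of the 44 collagens. Genes with 4 or more made up 6.83% of all genes and 5 of the 44, namely Col4a1, Col4a2, Col5a1 (7 peaks), Col18a1 (5) and Col4a3 (4). The median gene with a peak had 2, and the median collagen gene with a peak had 3. The name given to a peak is that of the nearest start, so the split between Col4a1 and Col4a2 follows the annotated Col4a2 start. RefSeq on GRCr8 places the starts of these 2 genes 77 bases apart.

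**Figure D2:**
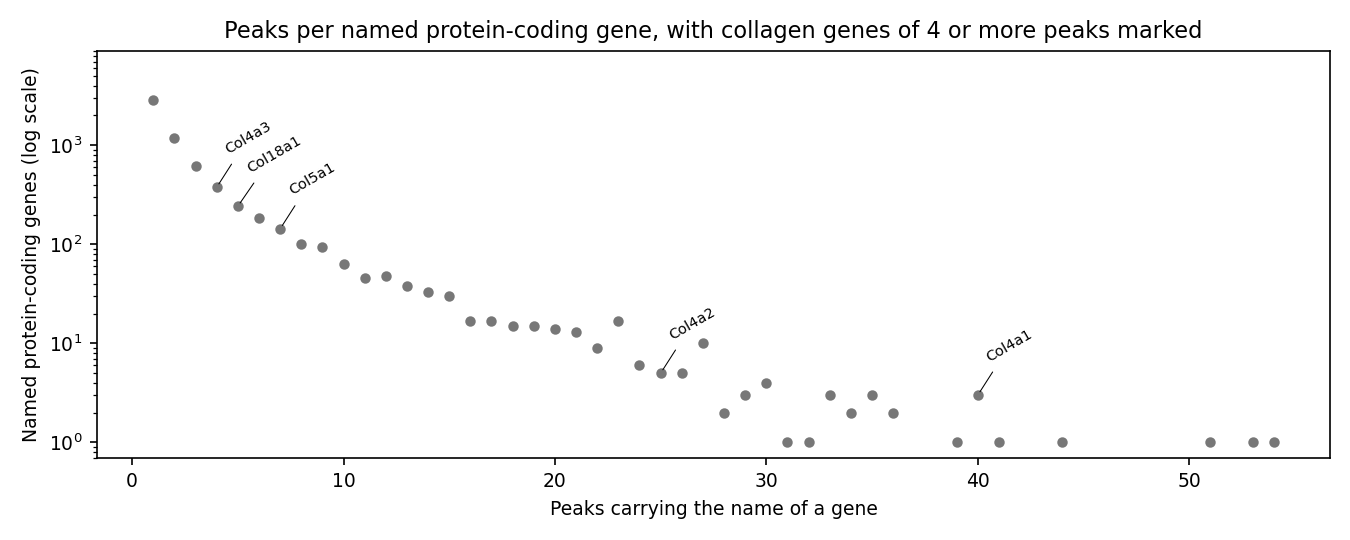
Number of named protein-coding genes (log scale) by the number of peaks that carry their name. Each point is a count of genes, and collagen genes with 4 or more peaks are marked. Col4a1 at 40 peaks and Col4a2 at 25 lie in the sparse right tail, while Col4a3, Col18a1 and Col5a1 lie between 4 and 7.

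Col4a1 and Col4a2 encode the 2 chains of the most widespread type IV collagen. Their peaks formed a dense cluster on chromosome 16 of rn6. Between 83428624 and 83581575, 64 peaks covered 44.4 kb of 153 kb, or 29.0% of the stretch, and no peak of another name fell inside it. The median gap between neighbouring peaks was 787 bp, 37 of 63 gaps were under 1 kb, and the widest was 11.3 kb. The nearest peak of another name, at Rab20, lay 56.0 kb away at 3.90-fold. A single further Col4a1 peak stood 127 kb downstream of its start (83648855 to 83649222, 3.64-fold). Of 7305 windows of 100 kb that held a peak, the 2 windows that hold this cluster ranked 8 and 15 with 34 and 30 peaks, against a median of 2 and a maximum of 42.

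**Figure D3:**
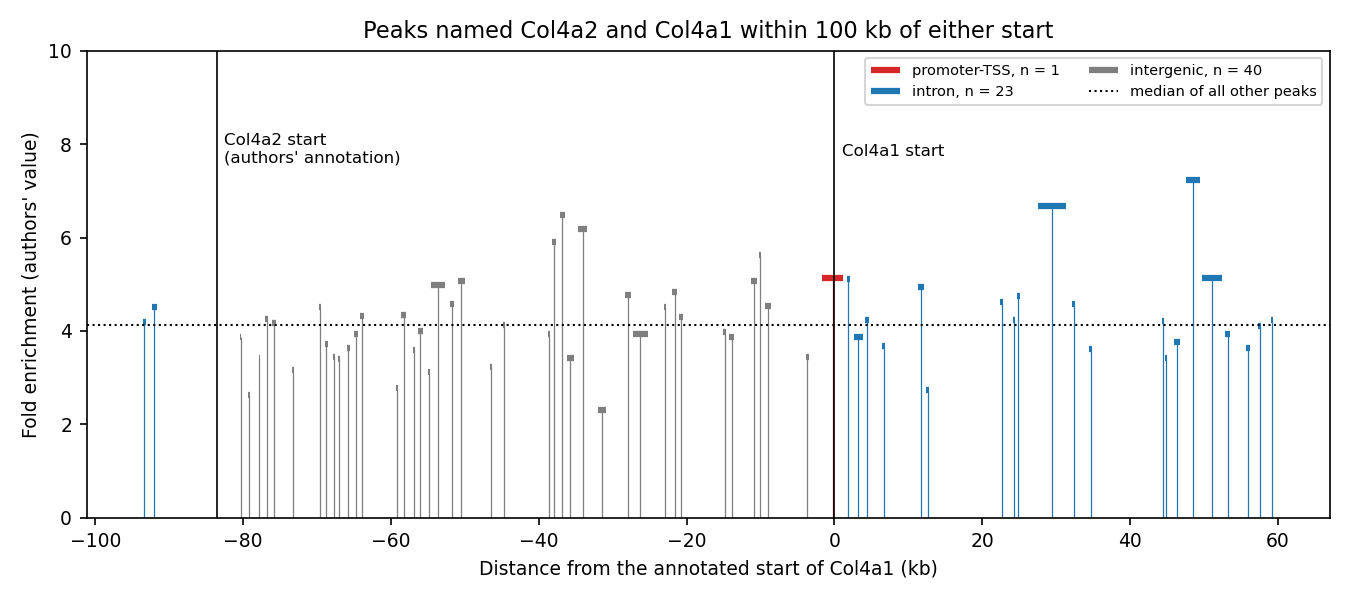
Fold enrichment of the 64 Col4a1 and Col4a2 peaks within 100 kb of a start (vertical axis) against distance from the annotated Col4a1 start in kb (horizontal axis). Thick bars span each peak, colours give its class, vertical black lines mark the annotated starts and the dotted line is the median of all other peaks. The 64 peaks run from the annotated body of Col4a2 across the space between the annotated starts and into introns 1 and 2 of Col4a1. The highest bar is at 7.24-fold in intron 2.

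In the authors' annotation the Col4a2 start lay at 83438562 and the Col4a1 start at 83522162, which is 83.6 kb apart, although RefSeq on GRCr8 places them next to each other. Between the 2 annotated starts stood 41 peaks, of which 40 were classed as intergenic, 23 named Col4a2 and 17 named Col4a1. That class and these distances follow the authors' gene model of Col4a2. Col4a2 is on the minus strand and Col4a1 on the plus strand. Were the RefSeq starts, 77 bases apart, to hold in rn6, these peaks would lie downstream of the Col4a2 start, inside that gene. No rn6 gene sequence was read, so this was not tested. The fold enrichments do not depend on the model.

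Of the 8 strongest peaks under a collagen name, 6 were named Col4a1, 1 Col4a4 and 1 Col18a1. The strongest collagen peak, 7.24-fold, lay in intron 2 of 51, 48.5 kb downstream of the start (83569706 to 83571636), and ranked 504 of 28706 in the list. A peak of 6.68-fold and 3698 bp, the widest of the family, lay in intron 1 at 29.4 kb (83549762 to 83553459). Upstream, peaks of 6.48-fold at 36.8 kb (83484997 to 83485727), 6.18-fold at 34.1 kb (83487443 to 83488753) and 5.92-fold at 37.9 kb (83483956 to 83484514) lay within a few kb, with a weaker peak of 3.43-fold among them (83485926 to 83486888). The Col4a4 and Col18a1 peaks, at 6.54 and 6.51-fold, were above every upstream Col4a1 peak. Nearer the start, a peak of 5.62-fold lay 10044 bp upstream (83511991 to 83512245).

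The Col4a1 promoter peak was wide and of moderate strength. It spanned 83520497 to 83523394 at 5.14-fold, with 1665 bp before the start and 1232 bp after it. The next peak, at 5.11-fold, lay 1.92 kb into intron 1 (83523899 to 83524273). Intron 1 held 12 peaks with a median of 4.40-fold and intron 2 held 9 with a median of 4.11-fold, while the 17 upstream peaks had a median of 4.51-fold. In steps of 10 kb, the Col4a1 block from 40 to 30 kb upstream had the highest median, 4.93-fold over 6 peaks, although it also held the lowest collagen peak of all at 2.32-fold. The block from 20 to 30 kb downstream followed with 4.68-fold over 4 peaks. No Col4a1 peak was called from 60 to 120 kb downstream.

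Peaks named Col4a2 had a lower median and a lower maximum than those named Col4a1, although the ranges overlap. Their range was 2.62 to 5.06-fold with a median of 3.94, against 2.32 to 7.24-fold and a median of 4.23 for Col4a1. The annotated Col4a2 start also decides that the 17 upstream peaks, of up to 6.48-fold, carry the name Col4a1. A difference between the 2 genes cannot be read from this split. No Col4a2 peak had a centre within 1 kb of the annotated start, and the nearest lay 3.25 kb upstream (83441705 to 83441922, 3.86-fold). Only 2 lay in the annotated gene, both in intron 8 of 46, at 4.51-fold (83429752 to 83430441) and 4.18-fold (83428624 to 83428964). Blocks of 10 kb differed little. The block from 40 to 30 kb upstream of the annotated Col4a2 start had a median of 4.35-fold over 4 peaks, with 5.06-fold at 33.1 kb (83471175 to 83472238). From 30 to 20 kb upstream 6 peaks ranged from 2.77 to 4.99-fold, with the highest at 29975 bp (83467622 to 83469450). From 20 to 10 kb the median was 3.68-fold over 8 peaks, and in the last 10 kb 3.86-fold over 5.

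Col4a3 and Col4a4 encode chains of the type IV network best known from the basement membranes of the kidney glomerulus, the lung and the inner ear. Their pair carried 7 peaks on chromosome 9. The annotated starts lay 374 bp apart (Col4a4 at 88357182, Col4a3 at 88357556), and both had a promoter-class peak. That named Col4a4 was at 5.56-fold (88356951 to 88357353), and that named Col4a3 at 3.41-fold (88357519 to 88358390). By transcript the annotation placed the first in the Col4a3 promoter and the second in the Col4a4 promoter, so the naming of these 2 peaks depends on which column is read. The strongest Col4a4 peak, 6.54-fold, lay in intron 1 of 6 of a Col4a4 transcript (88346059 to 88346377). Another was at 2.73-fold (88348651 to 88348916). Col4a3 had 3 further peaks in intron 1 of 51, at 4.53-fold (88377116 to 88377594), 2.95-fold (88377873 to 88378276) and 3.43-fold (88407387 to 88407685).

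The third pair, Col4a5 and Col4a6, had no peak under either name. Both are on the X chromosome, which held 234 of the 28706 peaks (0.815%). The share of all genes on this chromosome is not given here, so whether that is low was not tested. Between Mid2 and Pls3, the nearest genes with a peak in the RefSeq order, 7010 kb held 7 peaks under other names. The 3 pairs thus carried 65, 7 and 0 peaks.

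Fibrillar collagens had 10 peaks, all of them type V. Collagen V is a minor fibrillar collagen that starts and sizes the fibres of collagen I. Col5a1 had 7 peaks, none of them within 28 kb of its start, in 2 groups on chromosome 3. The first 5 lay in intron 1 of 63, between 28.8 and 31.7 kb downstream, at 4.47-fold (6459216 to 6459590), 3.18-fold (6459765 to 6459964), 4.51-fold (6460385 to 6461463), 3.74-fold (6461717 to 6461916) and 4.51-fold (6462131 to 6462399). The other 2 lay in intron 4, at 4.02-fold (6478034 to 6478781) and 3.38-fold (6479002 to 6479510). Col5a2 had a promoter-class peak 7 bp from its start at 3.94-fold (chromosome 9, 52238383 to 52238732) and a second peak 588 bp downstream in intron 1 at 4.05-fold (52237858 to 52238094). Its remaining peak, at 4.40-fold, lay in intron 12 of 56, 106 kb downstream (52132189 to 52132483). No peak under a fibrillar name reached 6-fold, and the strongest was at 4.51-fold. These values and the count of 2 of 11 leave out 3 peaks named after an unidentified placeholder model, given with Col1a2.

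**Figure D4:**
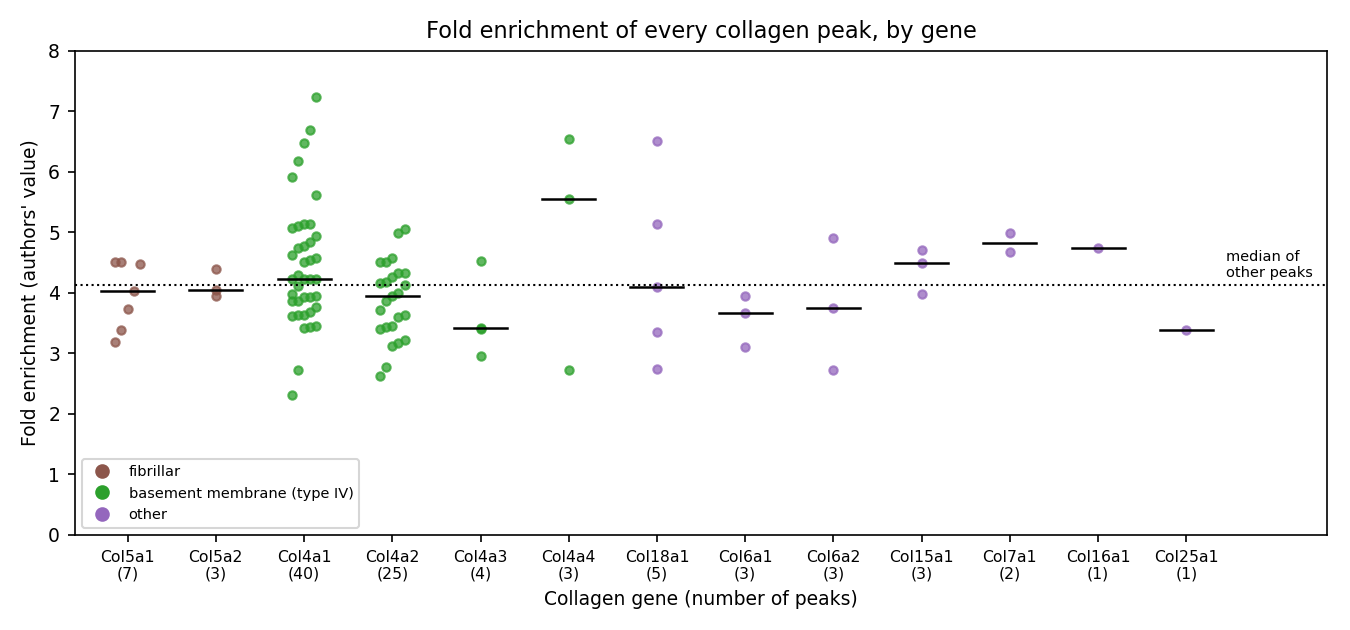
Fold enrichment (vertical axis) of each of the 100 collagen peaks by gene, with the number of peaks in brackets. Points are peaks, short lines are medians per gene, the dotted line is the median of all other peaks, and colours give the collagen class. Col4a1 spans 2.32 to 7.24-fold, and the fibrillar genes stay between 3.18 and 4.51-fold. The peaks of the placeholder model given with Col1a2 are not shown.

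No peak carried the name of the other 9 fibrillar genes, Col1a1, Col1a2, Col2a1, Col3a1, Col5a3, Col11a1, Col11a2, Col24a1 and Col27a1. A missing name can come from naming, so the nearest neighbours in the RefSeq gene order that did carry a peak were read, on the assumption that this order also holds in rn6. Between the peaks of Ercc5 and Col5a2, which flank Col3a1, 1207 kb held no peak at all. Between Xylt2 and Hils1, which flank Col1a1, 344 kb of chromosome 10 held 1 peak. It was named after the non-coding model AABR07030366.1, 3.75-fold (82724122 to 82724361). The 3 Hils1 peaks themselves were at 3.93, 3.93 and 3.34-fold and lay upstream of that gene (82767419 to 82769373).

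For Col1a2 the files leave the question unsettled. Between Gng11 and Pon2, which flank it, 1390 kb of chromosome 4 held 2 peaks, both named after the protein-coding placeholder NEWGENE_621351. They were at 6.65-fold (29441481 to 29442185) and 4.88-fold (29440841 to 29441241), at -88.0 and -88.8 kb from the start of that model. Another peak with this name, at 4.58-fold, was outside the stretch (31514228 to 31514427). Which gene the placeholder stands for is not given in the sources used here, so the missing name does not show that Col1a2 had no peak nearby. Were these peaks to belong to a fibrillar gene, the fibrillar count and its highest value would both be larger than given here. For 4 of the 31 absent collagens (Col6a4, Col6a5, Col6a6 and Col11a2) the flanking genes stood in the opposite order in rn6, so the assumption fails there and nothing was read from those stretches. Of the other 27, 11 had no peak of another name between their flanking genes (Col2a1, Col3a1, Col5a3, Col8a1, Col8a2, Col9a2, Col11a1, Col13a1, Col17a1, Col20a1 and Col27a1), and 16 had at least 1.

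Among the other collagens, peaks lay away from the start. Col18a1 and Col15a1 encode the multiplexins of the basement membrane zone, whose C-terminal fragments, endostatin in the case of Col18a1, restrain vessel growth. Col18a1 had 4 peaks 47.3 to 43.5 kb upstream on chromosome 20, with 6.51-fold at the strongest (12180359 to 12181252), then 4.09-fold (12181579 to 12181911), 3.35-fold (12178263 to 12178757) and 2.73-fold (12177816 to 12178015). Its remaining peak was at 5.14-fold in intron 2 of 40, 46.5 kb downstream (12271567 to 12271766). Col15a1 had 3 intergenic peaks on chromosome 5, 4.71-fold at 58.2 kb upstream (62782058 to 62782263), 4.50-fold at 45.7 kb (62794602 to 62794801) and 3.97-fold at 26.0 kb (62814235 to 62814499). A peak named Tgfbr1 at the termination site of a Col15a1 transcript was at 3.70-fold (62950315 to 62950629).

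Collagen VI forms beaded filaments around cells. Col6a2 had 3 intergenic peaks 15.6 to 12.4 kb upstream on chromosome 20, at 4.91-fold (12757534 to 12758121), 2.73-fold (12759509 to 12759739) and 3.74-fold (12760962 to 12761193). Col6a1 had 1 intergenic peak 6.95 kb upstream at 3.66-fold (12650957 to 12651269). Its other 2, at 3.94-fold and 3.10-fold, lay 104 and 68.1 kb upstream in introns 2 and 3 of Pcbp3 (12553836 to 12554073 and 12589882 to 12590088). Col6a3 had no peak under its name, and 3 peaks of the unnamed models AABR07068316.1 and AABR07068316.2, at 4.58, 3.25 and 4.18-fold, stood between its neighbours Cops8 and Mlph.

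Col7a1, the anchoring fibril collagen, had peaks of 4.98-fold (117691760 to 117692639) and 4.67-fold (117691165 to 117691423) on chromosome 8, 2.41 and 3.31 kb upstream of its start. The second was classed at the termination site of another transcript. Col16a1, of the class that associates with fibrils, had 1 peak of 4.73-fold 12.1 kb upstream (chromosome 5, 148245162 to 148245957). Col25a1, a transmembrane collagen, had 1 of 3.38-fold 18.4 kb upstream (chromosome 2, 235577605 to 235577821). The names without a peak were Col6a3, Col6a4, Col6a5, Col6a6, Col8a1, Col8a2, Col9a1, Col9a2, Col9a3, Col10a1, Col12a1, Col13a1, Col14a1, Col17a1, Col19a1, Col20a1, Col22a1, Col23a1, Col26a1 and Col28a1.

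**Figure D5:**
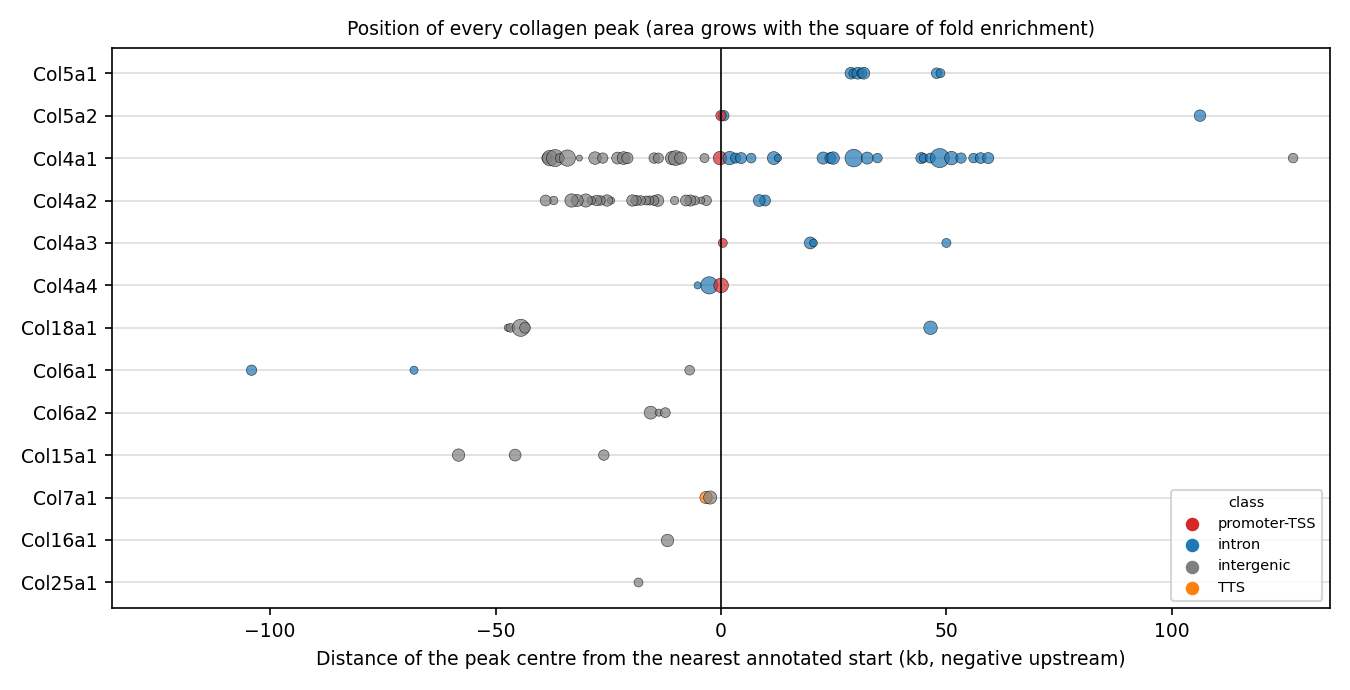
Position of each collagen peak relative to the nearest annotated start of its gene (horizontal axis, kb, negative upstream), one row per gene. Colours give the class and the area of a point grows with the square of fold enrichment. Peaks at the start appear for Col5a2, Col4a1, Col4a3 and Col4a4, and the peaks of Col18a1, Col15a1 and Col5a1 lie far from it.

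As a family, collagen peaks were of ordinary strength and lay farther from the start. Their median fold enrichment was 4.10 (quartiles 3.61 and 4.63, interval of the median 3.94 to 4.33), against 4.13 (3.62 and 4.79) for the 28606 other peaks. Peaks of at least 6-fold made up 6 of 100, against 6.31% of all peaks, and peaks of at least 1000 bp made up 11, against 9.22%, 10 of the 11 at Col4a1 or Col4a2. Median width was 400 bp for collagen peaks and 375 bp for the others. Only 5 of 100 collagen peaks lay within 1 kb of the start, against 19.5% of the other peaks, and 74 lay 10 to 100 kb away, against 50.5%. The median distance was 24.6 kb for collagen peaks and 14.4 kb for the others. Intergenic peaks made up 55 of the 100 and intron peaks 40, against 41.1% and 43.8% of the others. Of the 55, 40 lay between the annotated starts of Col4a1 and Col4a2, where class and distance depend on the authors' Col4a2 model. Were they inside Col4a2, they would not count as intergenic. Without Col4a1 and Col4a2, 35 peaks of 11 genes remained, of which 4 (11.4%) lay within 1 kb, 24 (68.6%) lay 10 to 100 kb away and 14 (40.0%) were intergenic. Peaks of 1 gene share a locus and are not independent, so these are descriptions.

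Genes that make, process, bind and degrade collagen carried peaks more often than the collagens themselves by count, at 29 of 70 (41.4%, 29.8 to 53.8%, an interval that overlaps that of the collagens), against 27.1% of all genes. Of the 70, 20 (28.6%) had one within 1 kb of the start, against 17.1% of all genes. The lists below are read against the same 27.1%, and with 10 to 23 genes each their intervals are wide. All were chosen with earlier results of these data known, so these shares are descriptions. In folding and modification, 10 of 23 genes had a peak. The strongest were Serpinh1, the collagen chaperone HSP47, at 6.48-fold 225 bp downstream of its start, the prolyl 3-hydroxylase P3h2 at 6.32-fold, and P4ha2, a subunit of prolyl 4-hydroxylase, at 5.39-fold. The P3h2 and P4ha2 peaks lay 53.9 and 50.1 kb downstream of their starts. Colgalt1, Crtap, Fkbp10, Fkbp14, Mia2, Mia3, P3h1, P3h3, P3h4, P4ha3, Ppib, Sec23a and Tmem38b had none. In processing and crosslinking, 5 of 12 genes had a peak, led by the procollagen N-proteinase Adamts2 at 7.21-fold, and followed by the lysyl oxidase family members Loxl3 at 4.37-fold and Loxl1 at 4.07-fold. The Adamts2 peak lay 76.3 kb downstream of its start, those of Loxl3 and Loxl1 324 and 282 bp downstream. Adamts3, Lox, Loxl2, Loxl4, Pcolce, Tll1 and Tll2 had none.

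Collagen receptors had a peak at 6 of 10 genes. The integrin chain Itga1, which binds type IV collagen with Itgb1, had 6.48-fold 832 bp downstream of its start. The collagen uptake receptor Mrc2 had 6.20-fold 63.1 kb downstream and Itgb1 had 5.91-fold at its promoter, while Gp6, Itga10, Itga2 and Lair1 had none. In the list of degradation enzymes and their inhibitors, 5 of 13 genes had a peak. The metalloproteinase inhibitors Timp4 and Timp3 led with 8.98-fold and 7.04-fold and with 13 and 24 peaks, and the membrane metalloproteinase Mmp14 had 5.12-fold. The strongest peaks of Timp4, Timp3 and Mmp14 lay 12.5 kb, 852 bp and 730 bp downstream of the start. Ctsk, Mmp13, Mmp16, Mmp2, Mmp3, Mmp8, Reck and Timp1 had none. Of 12 matrix genes that associate with fibrils, 3 had a peak, the collagen-binding Sparc at 5.90-fold with 16 peaks, Thbs2 at 5.41-fold and Fmod at 4.14-fold. Bgn, Comp, Dcn, Fbn1, Fn1, Lum, Postn, Thbs1 and Tnc had none.

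Markers of the cell types in myocardium were read from the same list. The share over all genes was 27.1%, and a peak carries the name of the nearest start, near or far. Within 1 kb of a start, the counts were 4 of 10 cardiomyocyte, 6 of 8 endothelial and 3 of 8 smooth muscle and pericyte markers. Fibroblast markers had 1 of 8 and immune markers 0 of 6, against 17.1% of all genes. Cardiomyocyte markers had a peak at 7 of 10 genes, led by Pln at 7.04-fold, Ldb3 at 5.95-fold and Tnnt2 at 5.05-fold, while Myh6, Ryr2 and Ttn had none. The Pln peak lay 143 kb upstream of its start. Endothelial markers had one at 6 of 8, led by Kdr at 7.61-fold, Sox17 at 6.99-fold and Tek at 6.90-fold, while Emcn and Pecam1 had none. The strongest Kdr peak lay 70.6 kb downstream of its start. Smooth muscle and pericyte markers had one at 4 of 8, led by Abcc9 at 5.18-fold, Acta2 at 5.08-fold and Pdgfrb at 4.87-fold, while Cnn1, Myh11, Rgs5 and Tagln had none. Fibroblast markers had one at 3 of 8, Dpt at 6.67-fold, Tcf21 at 4.58-fold and Gsn at 4.21-fold, while Dcn, Lum, Pdgfra, Postn and Thy1 had none. Immune markers had one at 1 of 6, Csf1r at 3.70-fold, while Adgre1, C1qa, Cd68, Itgam and Ptprc had none. In bulk tissue, few cells of a type and little mark per cell cannot be told apart, and neither can be read from a missing peak at an unknown depth. The part of cell composition in the collagen pattern was not tested.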

How the data were processed

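The starting points were 2 deposited tables of the ChIP library, its peaks and their annotation. The input library had no values here. The submitters' processing notes name MACS2, HOMER, Bowtie2, Trim Galore, FastQC, deepTools and SAMtools, and the build rn6. Versions, their order, the use of the input as background and any pooling are not given in the sources used here. The deposited signal value is a fold enrichment ratio to local background. The deposited p-values and q-values are −log10 values, per the file headers, and the largest q was 0.0493. In all 28706 peaks the authors' score was 10 times −log10 q, rounded down, and it was not used further. These are the authors' values per peak, used to describe and rank peaks in this list. Class, gene name and distance to the nearest TSS come from HOMER, per the file headers.

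Peaks were joined by name (28706 of 28706) with pandas 2.3.3, and intervals computed with scipy 1.17.1. Starts were derived from peak centres and signed distances. Of the 8094 names, 77.5% matched RefSeq symbols or older symbols of GRCr8, and all 13 collagen names matched. That build was used for names, gene order and promoter sequence alone. Promoters were found for 35 of 44 collagens. The lists held 2 genes (Col21a1, Pcolce2) with no row in the table, and these were not analysed here. Counting was tested on simulated lists. Sequencing depth is unknown, and PCR duplicates were not separable. Every collagen of the table is named. Each peak is given for fibrillar and type IV genes, except that the 65 of Col4a1 and Col4a2 are given by their strongest peaks and by blocks. For the other lists the 3 strongest genes and those without a peak are named. Members and lists were chosen with earlier results of these data known.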

Additional observations from a re-analysis of the deposited data

How the results depend on the processing

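At −log10 q of at least 5, 6 collagen genes kept a peak (Col4a1, Col4a2, Col4a4, Col7a1, Col16a1 and Col18a1, 13.6% against 14.4% of all genes), with 27 peaks at a median of 5.06-fold. Of these genes 0 were fibrillar by name and 3 were other collagens. The placeholder peaks of 6.65 and 4.88-fold given with Col1a2 also passed this limit, at −log10 q of 9.13 and 6.04. A promoter-class peak stood at 2 collagen genes (4.55%), against 4.23% of all genes, and 2 had one within 1 kb of the start, against 8%. Collagen-handling genes with a peak numbered 16 of 70, beside the same 14.4% of all genes. At fold enrichment of at least 4, 53 collagen peaks remained at a median of 4.57-fold, and 2 genes (4.55%) had a promoter-class peak, against 5.37% of all genes. Both limits select peaks by strength, so the medians had to rise. Merging peaks less than 1 kb apart left 53, of which 19 were at Col4a1 and 9 at Col4a2. Leaving out Col4a1 and Col4a2, a step added after seeing the data, left 35 unmerged peaks. Limits of 100 kb on distance, naming by the transcript a peak lies in, which left 99 peaks, and counting multiplexins with basement membrane (6 genes there, 5 other) kept the other counts within 1.5 times. By transcript, 14.6% of peaks in a transcript had no name for it and kept the nearest start. No paired analysis was possible because the ChIP and input libraries share a single number and only the first has values here. Without library totals, a missing peak means no call at this depth.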

Other observations

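The boxes searched in the promoters were read over 35 collagen windows and over all 33469 RefSeq windows of the same length. These 33469 outnumber the 23154 protein-coding genes, so they are not a set of 1 window per coding gene. The windows of Col4a1 and Col4a2 share 176 bases and are both counted. The GC box stood in 19 collagen windows (54.3%), against 33.1% of all windows. The CCAAT box stood in 11 (31.4%), against 37.5%, the TATA box in 4 (11.4%), against 14.2%, and the AP-1 letters TGANTCA, which read the same on both strands, in 1 (2.86%, at Col6a1), against 7.33%. Collagen promoters with a peak anywhere had a median GC content of 62.7% over 11 windows, and those with no peak 57.2% over 24, with ranges of 47.7 to 75% and 41.7 to 74.3% that overlap. Windows of Col8a2 (73.7%) and Col23a1 (74.3%) had a GC content close to that of Col4a1 (75%) and their genes had no peak, 2 examples chosen after the values were seen.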
